A study of Mus musculus with 12 samples.

Results

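Polysome RNA was compared with input RNA in striatal synaptosomes of mice carrying a Shank3 transgene (TG). The comparison used 6 of the 12 libraries of the series: 3 TG input libraries and 3 TG polysome libraries, numbered 1 to 3 in each fraction and paired by that number. All were from male C57BL/6J mice at postnatal day 70. The other 6 libraries, wild-type (WT) input and polysome in 3 libraries each, from males of the same strain, age and tissue, served as the second genotype. A gene was tested when at least 3 of the 6 TG libraries had a value of 10 or more, which held for 16292 of the 21492 genes in the table. The sources used here name no promoter or construct for the transgene and no number of animals behind a library. Nothing in the labels ties the numbered samples to separate animals. The p-values therefore describe these samples only, and the spread between them may be technical. The variance behind each p-value is moderated across genes, so it does not rest on the spread of that gene's own pairs alone.

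Synaptosomes are pinched-off nerve terminals, often with a resealed piece of the postsynaptic side, and they hold ribosomes, messengers and mitochondria of the synapse. A polysome is a messenger carrying several ribosomes, and it sediments faster than free ribonucleoprotein. A transcript's value in polysome RNA relative to input RNA is therefore used as a measure of how much of it is in the fraction engaged with ribosomes. Mitochondria translate their own messengers on their own ribosomes, whereas most mitochondrial proteins are made from nuclear genes by cytosolic ribosomes.

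The values are the authors' normalized estimated counts, and whether gene length entered their normalization is not stated. Shank3, which encodes a scaffold of the excitatory postsynaptic density, had input values of 5456, 17500 and 14107 in TG numbers 1 to 3 and polysome values of 5012, 12626 and 12252. Each TG library stood 2.10 to 4.20 times above the WT library of the same number and fraction. Total signal was 99845300 to 108098000 per TG input library and 62184500 to 64613000 per TG polysome library, and the depth in reads is unknown. Mitochondrial ribosomal RNA took 39.8% to 46.8% of input signal and 23.1% to 28.0% of polysome signal. Nuclear protein-coding genes took 41.2% to 48.9% of input and 67.8% to 73.2% of polysome signal. The 21 markers of medium spiny neurons, the main neurons of the striatum, were all measured and summed to 0.844% to 1.88% of nuclear coding signal in input and 1.00% to 1.91% in polysome RNA. The 16 astrocyte markers took 1.23% to 1.33% in input and 0.856% to 1.20% in polysome RNA, without overlap, and also without overlap when Slc1a2, the most abundant, was left out. The 17 oligodendrocyte markers took 0.728% to 1.17% and 0.756% to 1.15%. Markers of glia were thus in both fractions, and their part in the results was not tested.

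The question was which synaptosomal transcripts were over- or under-represented in polysomes of TG mice. In a paired limma fit on log2(value + 1), 5362 genes (32.9% of those tested) passed a Benjamini-Hochberg adjusted p of 0.05. Of these, 2574 (15.8%) were higher and 2788 (17.1%) lower in polysome RNA. Without the pairing, 1700 genes (10.4%) passed, 627 higher (3.85%) and 1073 lower (6.59%), and all 1700 were among the 5362. Differences were mostly small: the median log2 difference was 0.69 in the higher and -0.77 in the lower genes. A log2 difference of at least 1 was reached by 483 higher and 719 lower genes, and one of at least 2 by 58 and 85. All 3 pairs had the same sign in 99.4% of the called genes and in 64.3% of all genes tested. The calls rest on these same pairs, so the first share follows largely from the call and is no separate support. The 3 polysome and 3 input values did not overlap in 36.4% of all genes tested. Genes named below for the largest rises and falls were required not to overlap, so their lack of overlap is no added support.

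**Figure D1:**
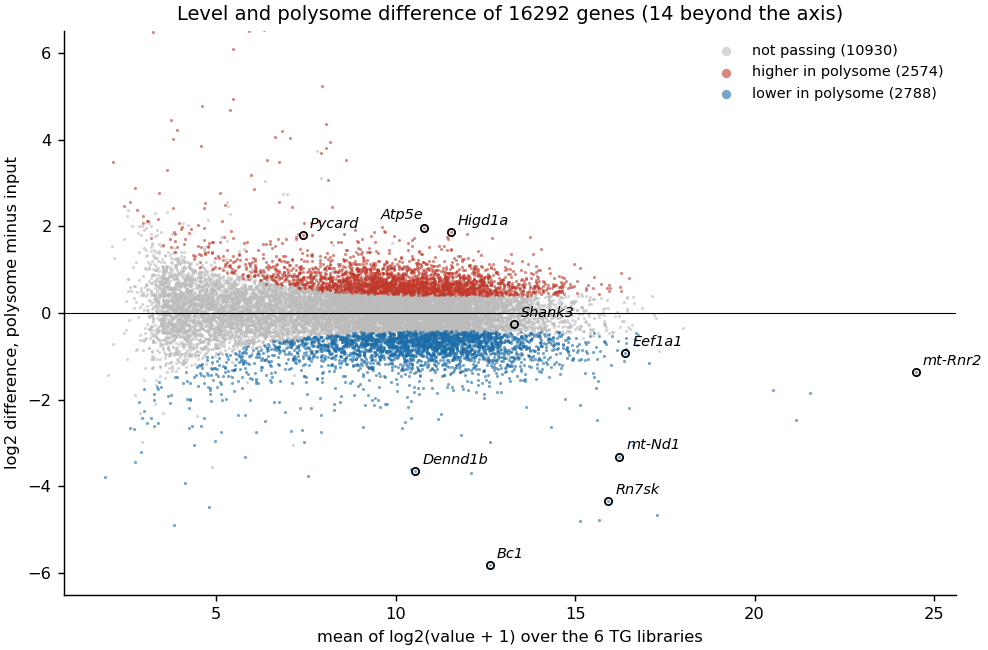
Each point is 1 of the 16292 genes tested in the TG libraries: the horizontal axis gives the mean log2(value + 1) over the 6 libraries and the vertical axis the log2 difference of polysome minus input. Red points (2574) passed as higher and blue points (2788) as lower in polysome RNA at an adjusted p of 0.05. Bc1 lies lowest among the circled genes, and 14 genes lie beyond the axis.

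The split between higher and lower genes depended on scaling. With libraries scaled to the total without mitochondrially encoded genes, the median log2 difference of all genes was 0.32 instead of 0.03, a shift of 0.29. Then 5503 genes were higher and 1391 lower, so that higher genes made up 79.8% of calls instead of 48.0%. All 5362 calls kept their sign under that scaling and 3965 of them still passed. Differences below are those of the deposited scale, and the text on a gene group says so where its median changes sign. Counts of a gene group are to be read beside the shares of all genes tested. These were 15.8% higher and 17.1% lower with the pairing, and 3.85% and 6.59% without it.

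Of the gene lists, the structural small RNAs had the lowest median difference. Bc1 is a short neuronal RNA made by RNA polymerase III that is carried into dendrites and represses initiation of translation. Its input values were 22119, 65158 and 74085, and its polysome values were 1001, 789 and 744. Every polysome value lay far below every input value, and the input of number 1 was the lowest of the 3 inputs. The log2 difference was -5.82 ± 0.33 (SE of the limma fit; adjusted p = 5.29e-06, limma), and it was -4.46, -6.37 and -6.64 in pairs 1 to 3. Here and below, ± gives the SE of the fit, whose variance is moderated across genes. It can be smaller than the spread of a gene's own pairs would give. The gene is a single exon at chr7:144914470-144914637 on the plus strand of GRCm38. Its sequence is shown because it carried the largest fall among the named genes. Capitals mark bases lying in 31-base words that also occur in transcripts of 9 other genes.

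Bc1: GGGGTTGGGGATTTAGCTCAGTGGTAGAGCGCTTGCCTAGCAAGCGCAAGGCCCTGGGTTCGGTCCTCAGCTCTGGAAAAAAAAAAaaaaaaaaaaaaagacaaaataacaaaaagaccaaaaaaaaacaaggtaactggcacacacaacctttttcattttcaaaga

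The capital letters cover 86 of the 168 bases. Reads lying wholly within this 5′ part may fit other genes. A 31-base word that reaches into the remaining 3′ part occurs in no other annotated transcript, and the rest of the genome was not searched. All 6 of the 6 structural small RNAs tested, of 17 listed, were lower in polysome RNA, with a median log2 difference of -3.54, against a median of 0.03 and 17.1% lower over all genes tested. All 6 also passed without the pairing. Small RNAs of other classes were mixed. Of 11 small nucleolar RNAs tested, 2 rose and 4 fell (median -0.84). Of 8 small nuclear RNAs, 0 rose and 1 fell (median -0.78), and of 6 small Cajal body RNAs, 0 rose and 2 fell (median 0.38). Sequence sharing was measured as the percent of a gene's 31-base words found in other genes. It was 40.6% for Bc1 and over 50% for the other 5, whose values are therefore uncertain. Rn7sk, the RNA that restrains the elongation factor P-TEFb in the nucleus, had 368228, 426601 and 137917 in input and 17400, 22807 and 6564 in polysome RNA. Rn7s1, an RNA of the signal recognition particle that binds ribosomes making secreted proteins, had 7042884, 4829041 and 4880081 in input against 1203262, 885751 and 929134. For each of these the lowest input value was several times the highest polysome value.

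**Figure D2:**
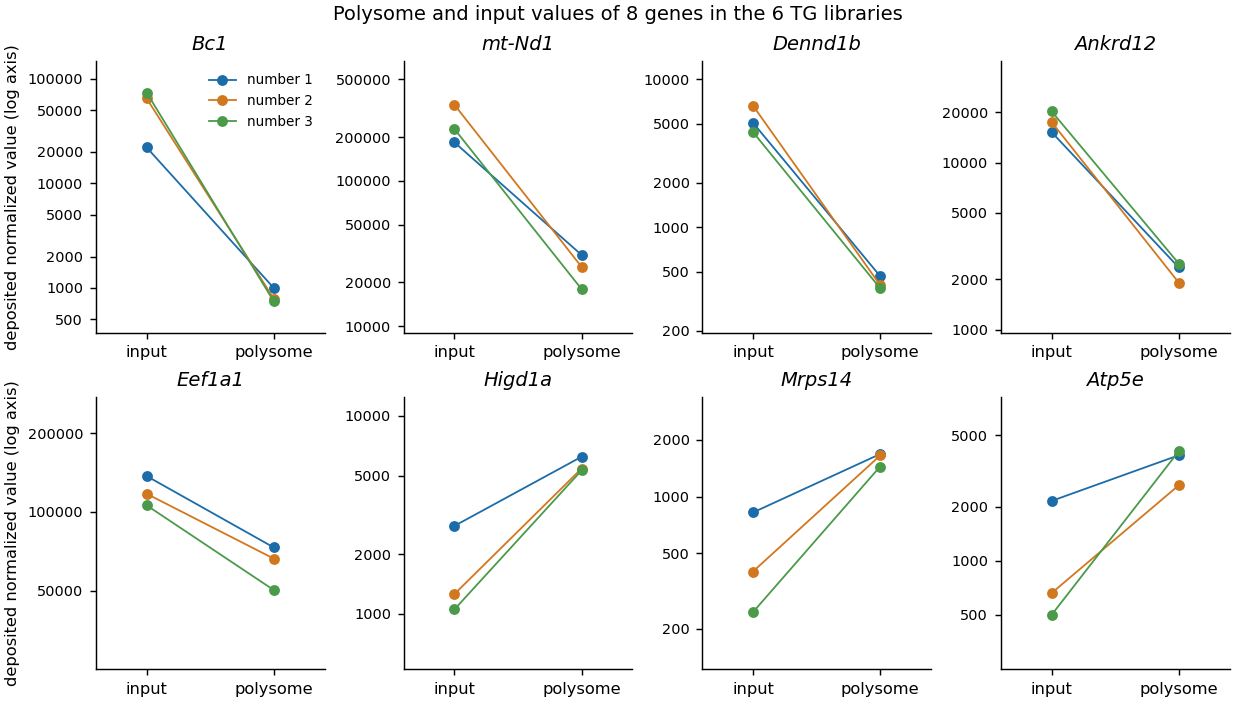
Deposited normalized values (log axis, ranges differ between panels) of 8 genes in TG input and polysome libraries, with a line joining the 2 libraries of each number. In the first 5 panels every polysome value lies below every input value, as for Bc1 with 744 to 1001 against 22119 to 74085. In Higd1a, Mrps14 and Atp5e every polysome value lies above every input value, and the input of number 1 is the highest. Except for Eef1a1, the genes shown were named by a rule that required no overlap.

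Long noncoding RNAs did not move as one group. Of 1168 tested, 52 (4.45%) were higher and 104 (8.90%) lower, and their median log2 difference was 0.10. Among 18 neuronal and nuclear long noncoding RNAs tested, 2 rose and 7 fell (median -0.33), and without the pairing 0 and 5. Mirg, a host of many microRNAs in the imprinted Dlk1-Dio3 region, fell from 103, 89.3 and 77.9 to 11.9, 19.8 and 8.15 (log2 difference -2.75 ± 0.34, adjusted p = 0.000881, limma). Rmst, a noncoding RNA of neurogenesis, had 662, 579 and 636 in input and 114, 79.8 and 88.5 in polysome RNA. Dlx6os1, transcribed opposite the Dlx6 homeobox gene of GABAergic neurons, rose by 0.47 ± 0.16 (adjusted p = 0.0422, limma), and its adjusted p without the pairing was 0.214. Of 13 noncoding hosts of small nucleolar RNAs tested, 0 rose and 5 fell (median -0.60), and 4 of the 5 passed without the pairing. Gas5, whose spliced RNA is read by ribosomes and then destroyed by nonsense-mediated decay, had 1396, 1824 and 1571 in input and 395, 273 and 408 in polysome RNA. Its log2 difference was -2.17 ± 0.20 (adjusted p = 0.00014, limma).

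RNAs made inside the mitochondrion were lower in polysome RNA. Of 13 mitochondrial messengers tested, 0 rose and 11 fell, with a median log2 difference of -1.99, and 9 fell without the pairing. mt-Nd1, a complex I subunit with no sequence shared with other genes, had 184034, 333949 and 227379 in input against 30872, 25550 and 17956 in polysome RNA. Its log2 difference was -3.32 ± 0.22 (adjusted p = 1.53e-05, limma), and the highest polysome value was well below the lowest input value. mt-Atp8, a small subunit of ATP synthase, had 12651, 19835 and 15216 in input and 1652, 1172 and 922 in polysome RNA. The 2 messengers that did not pass were mt-Atp6 (-1.13 ± 0.59, adjusted p = 0.163, limma) and mt-Co3 (-0.87 ± 0.41, adjusted p = 0.125), both sharing nearly all of their sequence with nuclear copies. Both were named after their values were seen.

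The mt-Atp8 sequence is given because its fall was the largest of the 13 messengers. It lies at chrM:7766-7969 on the plus strand of GRCm38. Its capital letters mark the 43 bases in 31-base words that occur in 2 other genes.

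mt-Atp8: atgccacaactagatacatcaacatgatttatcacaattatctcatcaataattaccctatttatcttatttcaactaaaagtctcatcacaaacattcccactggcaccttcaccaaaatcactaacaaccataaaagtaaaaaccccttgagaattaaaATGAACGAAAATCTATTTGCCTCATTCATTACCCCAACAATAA

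The remaining bases belong to mt-Atp8 alone among the annotated transcripts. In contrast, 5 unprocessed pseudogenes on chromosome 1 (Gm29216, Gm28438, Gm10925, Gm28437 and Gm28661) had 97.2% to 100% of their 31-base words in mitochondrial transcripts, and reads of both sources cannot be told apart there. These pseudogenes took 1.15% to 1.95% of TG input signal and 0.0897% to 0.155% of polysome signal. When they were added to the 13 messengers, the log2 difference of the summed signal was -1.78, -2.69 and -2.21 in pairs 1, 2 and 3. Both mitochondrial ribosomal RNAs passed as lower: mt-Rnr1, of the small subunit, at -1.84 ± 0.21 (adjusted p = 0.000517, limma) and mt-Rnr2, of the large subunit, at -1.36 ± 0.25 (adjusted p = 0.00388). After quantile normalization, which forces the most abundant features of all libraries to the same values, mt-Rnr1 stood at 0.13, and without the pairing mt-Rnr2 had an adjusted p of 0.135.

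Nuclear genes for mitochondrial proteins moved the opposite way. Of 37 nuclear complex I subunits, 22 rose and 1 fell (median log2 difference 0.64). Of 41 subunits of complexes II to V, 26 rose and 3 fell (median 0.73), and of 77 mitochondrial ribosomal proteins, 45 rose and 1 fell (median 0.54). Over all genes tested 15.8% rose. Without the pairing 12, 10 and 16 members rose in the 3 lists. With a trend on exonic length (all exons of a gene) removed, 17, 20 and 29 rose. Ndufb2, a small complex I subunit, had 1891, 1533 and 876 in input and 4456, 3278 and 4432 in polysome RNA (log2 difference 1.56 ± 0.22, adjusted p = 0.00156, limma). Higd1a, which encodes an inner-membrane protein associated with respiratory complexes, had 2783, 1260 and 1054 in input against 6223, 5425 and 5311 (1.87 ± 0.21, adjusted p = 0.000541). Every polysome value of both genes was above every input value, which for Higd1a was required by the rule that named it. Mrps14, of the small mitochondrial ribosomal subunit, had 824, 401 and 245 in input and 1681, 1651 and 1443 in polysome RNA.

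In Higd1a, Mrps14 and Atp5e the input of number 1 was the highest of the 3 inputs. Atp5e, the epsilon subunit of ATP synthase, had 2152, 660 and 499 in input and 3866, 2630 and 4072 in polysome RNA, so that its log2 difference ran from 0.84 in pair 1 to 3.03 in pair 3. Atp5g2, a c subunit, had 266, 69.1 and 31.4 in input, and its adjusted p was 0.0038 with and 0.0657 without the pairing. Ndufs1, the largest complex I subunit, stood at -1.07 ± 0.20 (adjusted p = 0.00377, limma), and Atp5a1, the alpha subunit of ATP synthase, at -0.68 ± 0.19 (adjusted p = 0.0201). Atp5a1 had an adjusted p of 0.139 without the pairing. Mrps31, of the mitochondrial ribosome, fell by 0.65 ± 0.17 (adjusted p = 0.0149, and 0.102 without the pairing).

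Replication-dependent histone messengers, which end in a stem-loop and carry no poly(A) tail, were the list with the highest median. Of 65 listed, 61 were tested, 54 rose and 0 fell, with a median log2 difference of 1.34, and 42 rose without the pairing. These genes are near copies of each other, and 37 of the 61 shared over 50% of their sequence. Of the other 24, 22 rose and 0 fell (median 1.35). Hist1h4i, an H4 gene, had 476, 443 and 182 in input and 1186, 1328 and 1011 in polysome RNA (1.79 ± 0.22, adjusted p = 0.00075, limma). Hist1h2ae, an H2A gene, had 203, 89.5 and 10.1 in input against 337, 357 and 267, and 4.60 of log2 difference in pair 3 against 0.73 in pair 1. Its adjusted p was 0.00797 with and 0.0956 without the pairing. The median of the list was 0.84, 1.39 and 1.86 in pairs 1, 2 and 3.

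**Figure D3:**
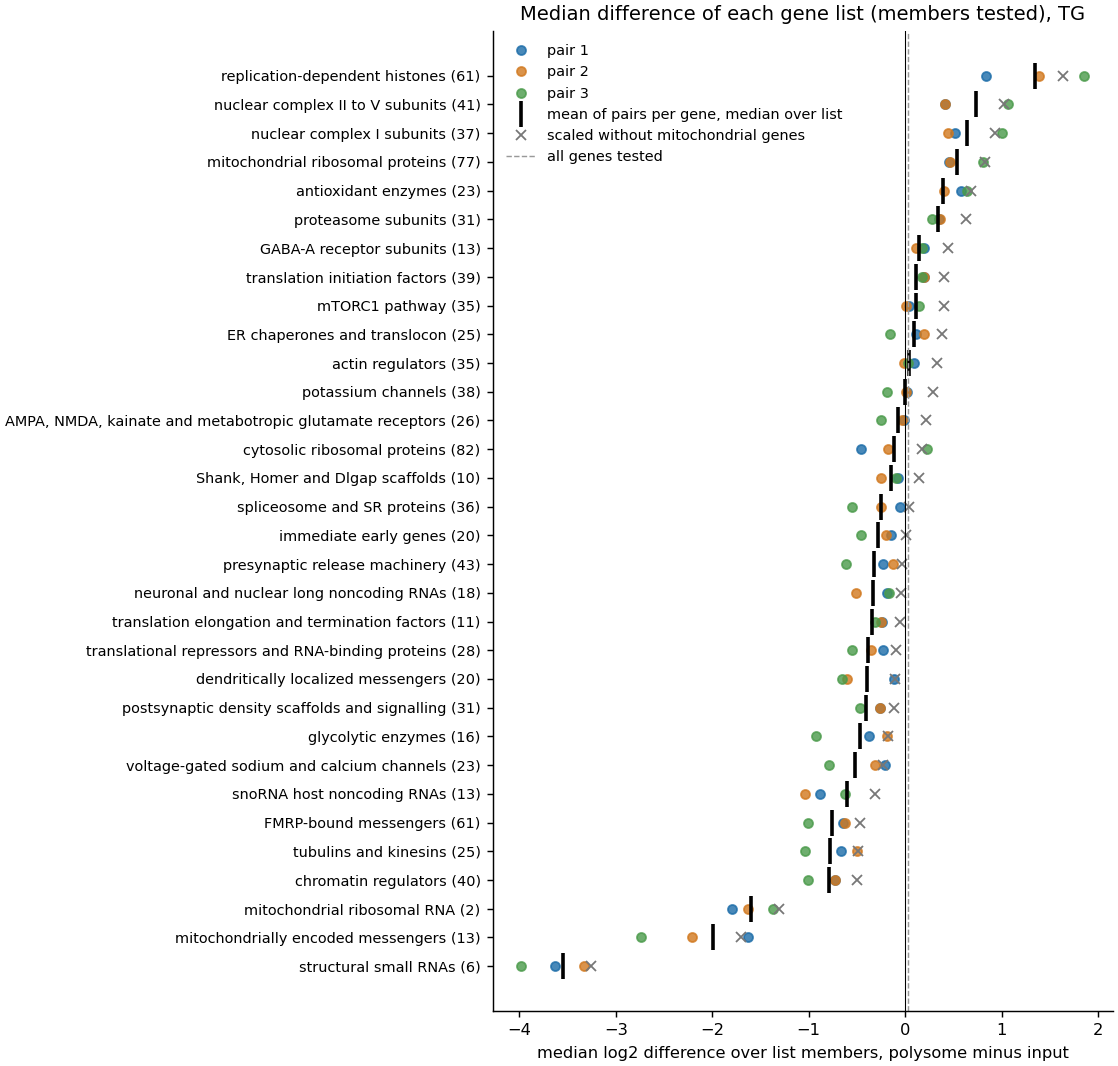
Median log2 difference, polysome minus input, over the tested members of gene lists in TG (number of members in parentheses). Lists of cell type markers and of circular RNA hosts are not shown. Coloured points are the medians in pairs 1 to 3, the black bar is the median of the fitted differences, the cross is that median with libraries scaled without mitochondrially encoded genes, and the dashed line is the median of all genes tested. Histones lie highest at 1.34 and structural small RNAs lowest at -3.54.

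In the translation machinery, of 82 cytosolic ribosomal proteins, 6 rose and 25 fell (median -0.11, which became 0.18 with libraries scaled without mitochondrial genes), and without the pairing 1 rose and 14 fell. Their median ran from -0.46 in pair 1 to 0.23 in pair 3, so the pairs did not share a direction. Rpl22l1, a paralog of the ribosomal protein Rpl22, had 1209, 479 and 273 in input and 1894, 2200 and 1497 in polysome RNA (1.77 ± 0.29, adjusted p = 0.00247, limma). Of 39 initiation factors, 14 rose and 8 fell (median 0.11), and 4 and 5 without the pairing. Eif2b1, a subunit of the exchange factor of eIF2, rose from 879, 775 and 518 to 1460, 1475 and 1280 (0.99 ± 0.16, adjusted p = 0.00272). Eif4g3, a large scaffold of the cap-binding complex, fell from 6781, 8746 and 12017 to 3198, 4003 and 3555 (-1.32 ± 0.17, adjusted p = 0.000966).

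Of 11 elongation and termination factors, 1 rose and 4 fell (median -0.34). Without the pairing 2 fell, and with libraries scaled without mitochondrial genes 2 rose and 2 fell (median -0.05). Eef1a1, which brings aminoacyl-tRNA to the ribosome, had 137078, 117314 and 105995 in input and 73202, 66355 and 50342 in polysome RNA (-0.93 ± 0.15, adjusted p = 0.00255, limma). Eef2, which moves the ribosome along the messenger, had 39797, 40802 and 40454 against 21869, 23132 and 17527 (-0.96 ± 0.15, adjusted p = 0.00223). No value overlapped between fractions in either gene. Eef1a2 and Abce1, a ribosome recycling factor, fell as well but had adjusted p of 0.112 and 0.0557 without the pairing. Eef1e1, a scaffold of the tRNA synthetase complex, rose by 0.75 ± 0.15 (adjusted p = 0.00574, and 0.0604 without the pairing). Of 28 translational repressors and RNA-binding proteins tested, 0 rose and 14 fell (median -0.38), and 7 fell without the pairing. Scaling without mitochondrial genes gave 3 higher and 8 lower, and removal of the length trend 1 and 9. Ybx1, an RNA-packaging protein that inhibits translation, fell from 4342, 6324 and 4022 to 2187, 2349 and 1179 (-1.40 ± 0.17, adjusted p = 0.000817). In the mTORC1 pathway, which controls translation by growth signals, 7 of 35 members rose and 6 fell (median 0.11), and without the pairing 4 and 2, near the shares of all genes tested.

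Rps27, a protein of the small ribosomal subunit, shows how near-identical copies bear on single values. It had 7108, 5310 and 2914 in input and 365, 63.7 and 2661 in polysome RNA (adjusted p = 0.00888, limma; 0.0623 without the pairing). Its copy Rps27rt, named after its values were seen, was listed at 0 in all 3 input libraries and had 2141, 2209 and 577 in polysome RNA. The coding sequences of the 2 genes, on chromosome 3 at 90212522 to 90213651 and on chromosome 9 at 114982366 to 114982739 (both minus strand, GRCm38), were 100% identical over 252 bases, without the stop codon. The shared sequence is shown because reads from it fit both genes equally.

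Rps27 and Rps27rt: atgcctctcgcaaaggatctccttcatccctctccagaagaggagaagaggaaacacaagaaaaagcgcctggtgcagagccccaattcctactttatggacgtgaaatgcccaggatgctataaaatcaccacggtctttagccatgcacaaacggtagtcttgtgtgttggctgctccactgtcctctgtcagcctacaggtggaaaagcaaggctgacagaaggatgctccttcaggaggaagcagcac

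The sum of both genes was 7108, 5310 and 2914 in input and 2506, 2273 and 3238 in polysome RNA. The summed log2 differences were -1.504, -1.22 and 0.15 in pairs 1 to 3, so that pair 3 did not show the fall of the other pairs. Of the called genes averaging 5 or more on the log2 scale, the 20 largest rises all shared over 50% of their sequence with other genes, as did 9 of the 20 largest falls. The genes named for their size exclude those sharing over 50%. This limit did not remove Rps27, with 27.6% shared, Atp5g2 with 40.2% or Hist1h2ae with 47.9%. Over all genes, 261 of the 717 tested that shared over 50% were called.

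At the synapse, of 31 postsynaptic density genes, 1 rose and 13 fell (median -0.40), and without the pairing 0 and 6. With libraries scaled without mitochondrial genes 3 rose and 6 fell, and with the trend on exonic length removed 6 rose and 8 fell (median -0.11). Akap5, which anchors kinases and calcineurin at the membrane, had 9924, 19102 and 12432 in input and 5708, 8845 and 3833 in polysome RNA (-1.20 ± 0.18, adjusted p = 0.00188, limma; 0.0525 without the pairing). Nlgn2, the adhesion molecule of inhibitory synapses, rose by 0.50 ± 0.14 (adjusted p = 0.0245, and 0.227 without the pairing). Shank3 was lower in each polysome library than in its input, but the difference did not pass (-0.27 ± 0.15, adjusted p = 0.188, limma). It was 0.027 with libraries scaled without mitochondrial genes and 0.0014 with the length trend removed. Of the 10 Shank, Homer and Dlgap scaffolds, 0 rose and 3 fell (median -0.15, which became 0.15 with libraries scaled without mitochondrial genes), and 0 passed without the pairing. With the length trend removed 2 rose and 0 fell. Shank2 was the largest of these falls, from 2729, 3205 and 4152 to 1736, 1974 and 2797 (-0.64 ± 0.14, adjusted p = 0.00817). Its fractions overlapped, and the fall was 0.65, 0.70 and 0.57 within the pairs. Dlgap1 stood at -0.55 ± 0.15 (adjusted p = 0.0192) and Dlgap2 at -0.49 ± 0.16 (adjusted p = 0.0372). Homer1 was at 0.36 ± 0.14 (adjusted p = 0.0735) and Dlgap4 at -0.33 ± 0.16 (adjusted p = 0.127).

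Glutamate receptor genes went both ways, at shares not far from those of all genes tested (15.8% higher and 17.1% lower). Of 26 such genes, 5 rose (19.2%) and 7 fell (26.9%), with a median of -0.08, and without the pairing 0 and 1. The median became 0.22 with libraries scaled without mitochondrial genes, with 9 higher and 2 lower. With the length trend removed 6 rose and 3 fell (median 0.09). Grin1, the obligatory NMDA receptor subunit, had 33975, 38569 and 49646 in input and 20441, 24126 and 15412 in polysome RNA (-1.03 ± 0.20, adjusted p = 0.0049, limma). Grin2c, another NMDA subunit, rose by 0.60 ± 0.14 (adjusted p = 0.0109, and 0.0562 without the pairing). Of 13 genes listed for GABA-A receptors, 4 rose and 1 fell (median 0.15), and only the fall passed without the pairing. Gabra4, an alpha subunit abundant in striatum, had 16475, 20808 and 15019 in input and 22360, 31333 and 26909 in polysome RNA (0.62 ± 0.15, adjusted p = 0.0113; 0.0867 without the pairing). The fall was Gphn, which encodes gephyrin, the scaffold under these receptors and not a subunit, at -1.37 ± 0.17 (adjusted p = 0.000925). No receptor subunit of the list was called lower. Gabrb2, Gabra2 and Gabrg1 rose by 0.59, 0.47 and 0.45.

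On the presynaptic side, 4 of 43 release genes rose and 16 fell (median -0.32), and without the pairing 1 and 7. With libraries scaled without mitochondrial genes 10 rose and 8 fell (median -0.03). Unc13a, which primes vesicles for fusion, had 12434, 15062 and 19280 in input and 5101, 6888 and 4599 in polysome RNA (-1.49 ± 0.19, adjusted p = 0.000931, limma). Sncb, the small protein beta-synuclein, rose from 1606, 1327 and 1338 to 3684, 2317 and 2952 (1.05 ± 0.15, adjusted p = 0.00164). Of 23 voltage-gated sodium and calcium channel genes, 1 rose and 12 fell (median -0.52), and without the pairing 1 and 4. Scaling without mitochondrial genes gave 6 higher and 5 lower, and removal of the length trend gave 2 and 2 (median -0.18). Cacna1b, the pore of N-type channels, fell by 1.08 ± 0.16 (adjusted p = 0.00185) and the much shorter auxiliary subunit Cacnb4 rose by 0.92 ± 0.15 (adjusted p = 0.00233). Of 38 potassium channels, 5 rose (13.2%) and 4 fell (10.5%), with a median of -0.01, and 0 and 1 passed without the pairing. Both shares lay below those of all genes tested (15.8% and 17.1%). With libraries scaled without mitochondrial genes the median became 0.29, with 14 higher and 2 lower. Kcnk2, a background channel, rose by 0.75 ± 0.16 (adjusted p = 0.00642, and 0.0894 without the pairing), and Kcnt2, a sodium-activated channel, fell by 1.03 ± 0.16 (adjusted p = 0.00217).

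Of 61 FMRP-bound messengers (targets of the protein lost in fragile X syndrome), 1 rose and 45 fell, with a median of -0.76, and without the pairing 1 and 28. Dync1h1, the heavy chain of dynein, had 37303, 72707 and 157542 in input and 13158, 19359 and 20586 in polysome RNA (-2.12 ± 0.24, adjusted p = 0.000508, limma). Aplp1, a relative of the amyloid precursor, was the only one that rose, from 64036, 73214 and 75519 to 109119, 122145 and 139028 (0.80 ± 0.15, adjusted p = 0.00435). The FMRP-bound list has a median coding length of 6819 bases, against 1416 over the coding genes tested. With the trend on exonic length removed 4 rose and 24 fell (median -0.30). Of 20 dendritically localized messengers, 0 rose and 8 fell (median -0.40), 6 fell without the pairing, and 5 rose and 8 fell with libraries scaled without mitochondrial genes. Of 25 tubulins and kinesins, 0 rose and 17 fell (median -0.78), and 11 fell without the pairing. Kif5a, a neuronal transport motor, had 84920, 72319 and 108606 in input and 28392, 23089 and 38978 in polysome RNA, and Kif5c of the same family fell by 1.06 ± 0.15 (adjusted p = 0.00163). Among 20 immediate early genes, 1 rose and 6 fell (median -0.28, which became 0.01 with libraries scaled without mitochondrial genes), and 1 and 2 without the pairing. Egr2 fell by 1.31 ± 0.24 (adjusted p = 0.00378) and Jund rose by 0.80 ± 0.17 (adjusted p = 0.0073). Of 35 actin regulators, 10 rose and 6 fell (median 0.04), and 1 and 3 without the pairing, with Arpc4 at 0.65 and Cttn at -0.97.

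Other cell functions followed both patterns. Of 40 chromatin regulators, 1 rose and 30 fell (median -0.79), and without the pairing 0 and 21. Their median coding length was 5542.5 bases. With the trend on exonic length removed 2 rose and 19 fell (median -0.45). Adnp had the largest fall (-2.01 ± 0.25) and Setd1a the only rise (0.46 ± 0.16), but both shared over 50% of their sequence and are uncertain. Of 36 spliceosome and SR protein genes, 6 rose and 14 fell (median -0.25, which became 0.04 with libraries scaled without mitochondrial genes), and 1 and 9 without the pairing. Prpf8, the largest core spliceosome protein, fell from 20067, 19516 and 21346 to 7801, 9734 and 6017, and the small Snrpd2 rose from 1920, 1357 and 902 to 2949, 2453 and 2738. Of 31 proteasome subunits, 13 rose and 1 fell (median 0.34), and of 23 antioxidant enzymes, 11 rose and 1 fell (median 0.39). Without the pairing 7 and 8 rose in these lists. Prdx4, a peroxiredoxin of the endoplasmic reticulum, rose by 1.15 ± 0.19 (adjusted p = 0.00276, limma), and Cat, catalase, fell by 0.83 ± 0.17 (adjusted p = 0.00565). Of 16 glycolytic enzymes, 1 rose and 8 fell (median -0.47), 2 fell without the pairing, and 2 rose and 3 fell with libraries scaled without mitochondrial genes. Pkm, pyruvate kinase, had 74793, 71358 and 80565 in input and 33069, 34715 and 20727 in polysome RNA, with a log2 difference of -1.39 ± 0.19 (adjusted p = 0.00128). Of 25 chaperones and translocon genes of the endoplasmic reticulum, 6 rose and 4 fell (median 0.09), and 2 and 1 without the pairing, with Sec61b at 1.41 and Calr at -1.04.

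Coding length was the gene property most closely related to the difference. Across 14167 coding genes that shared at most 50% of their sequence, the Spearman correlation of the log2 difference with coding length was -0.56, and it was -0.56, -0.39 and -0.57 in pairs 1, 2 and 3. These are correlations across genes, which are not independent replicates. The coefficient was -0.43 with the length of the whole transcript and -0.42 with exonic length, both of which include the coding part. It was -0.06 with the length of the 5′ untranslated region, -0.10 with that of the 3′ untranslated region and 0.12 with GC content. Within 5 groups of equal size by 3′ untranslated length, the coefficient for coding length was between -0.55 and -0.57. The genes were also put in 5 groups of about equal size by coding length. In the group with the shortest coding sequences (99 to 780 bases) the median log2 difference was 0.40, with 36.7% higher and 2.40% lower. In the longest group (2589 bases and more) it was -0.47, with 2.05% higher and 46.7% lower.

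**Figure D4:**
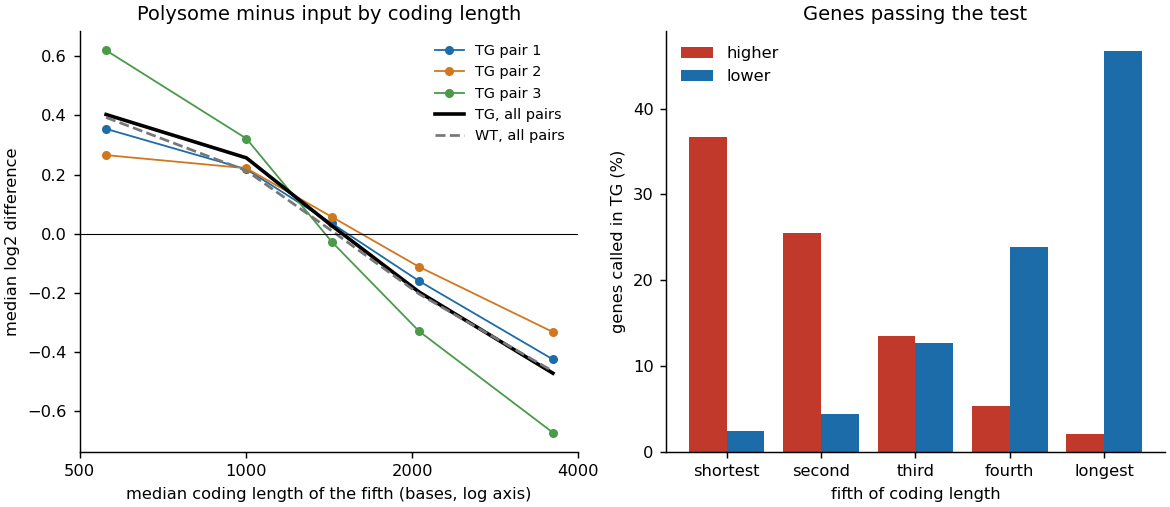
Left, median log2 difference of polysome minus input against the median coding length (log axis) of each of 5 groups of 14167 coding genes, for the 3 TG pairs, the TG fit and the WT fit. Right, percent of genes in each group that passed as higher or lower in TG. The TG median goes from 0.40 in the shortest to -0.47 in the longest group, and pair 3 spans the widest range.

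Input libraries also differed among themselves by length. In the shortest group the median gene was 0.24 log2 units higher in TG input 1 than in input 3, and in the longest group it differed by -0.20. Between polysome libraries 1 and 3 the corresponding medians were -0.01 and 0.04. Polysome libraries 2 and 3 differed by -0.19 in the shortest and 0.25 in the longest group. The part of these library differences in the relation with length was not tested. A smooth trend on exonic length, not coding length, was removed from the differences. What remained of the relation with coding length was not tested. After that removal 4592 genes passed, 2307 higher and 2285 lower, and 3760 of these were among the 5362. Nuclear complex I subunits, with a median coding length of 447 bases, then had 17 higher and 2 lower members (median 0.47), and cytosolic ribosomal proteins, of similar length (453 bases), had 3 higher and 38 lower (median -0.39).

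The largest falls outside the lists above included long and shorter genes. Dennd1b, a Rab exchange factor, had 5078, 6627 and 4396 in input and 469, 408 and 388 in polysome RNA (-3.65 ± 0.17, adjusted p = 9.54e-07, limma), with a coding length of 2298 bases. Ankrd12, an ankyrin-repeat nuclear protein, had 15244, 17515 and 20293 against 2357, 1914 and 2489 (-2.97 ± 0.15, adjusted p = 2.98e-06). Cep112, a centrosomal protein, had 489, 354 and 668 against 63.5, 48.9 and 73.6. Spata1, with a coding length of 1332 bases, had 178, 145 and 206 against 14.97, 34.4 and 8.54. In all 4 genes the lowest input was at least 4 times the highest polysome value. A list of 26 hosts of abundant brain circular RNAs, which holds Dennd1b, Cep112 and Rmst and was drawn up knowing that they fell in WT, had 1 higher and 19 lower members (median -0.91), and 0 and 16 without the pairing. That count is no independent evidence. Its member with the largest rise was Rtn4 (0.65 ± 0.15), whose adjusted p without the pairing was 0.0622. Circular and linear RNA are not separated in the gene values.

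Among the larger rises outside mitochondria and histones were Pycard, the adaptor of inflammasomes, and Dnajb3, a DNAJ-type chaperone. Pycard had 165, 62.3 and 70.8 in input and 309, 295 and 345 in polysome RNA (1.80 ± 0.27, adjusted p = 0.0019, limma). Dnajb3 had 33.3, 26.9 and 10.01 in input and 80.7, 72.4 and 89.9 in polysome RNA (1.90 ± 0.39, adjusted p = 0.0057). Neither shared more than 1% of its sequence. In both the polysome values lay above all input values, as the rule that named them required.

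Markers of cell types gave a mixed picture. Over all genes tested 15.8% rose and 17.1% fell. Of 21 medium spiny markers, 2 rose and 6 fell (median -0.07, which became 0.22 with libraries scaled without mitochondrial genes), and 0 passed without the pairing. Of 7 indirect-pathway markers 2 rose and 2 fell (median -0.21, which became 0.08 under that scaling), and of 8 direct-pathway markers 2 rose and 1 fell (median -0.02, which became 0.27). None of these passed without the pairing. Adora2a, an adenosine receptor of indirect-pathway neurons, had 11467, 16012 and 8472 in input and 16880, 30643 and 18046 in polysome RNA (0.86 ± 0.16, adjusted p = 0.00372, limma; 0.0922 without the pairing). In the same list Penk, the enkephalin precursor, rose by 0.51 ± 0.16, the transcription factor Sp9 stood at -0.58 ± 0.18 and the kainate receptor subunit Grik3 at -0.48 ± 0.14. Tac1, the precursor of substance P in direct-pathway neurons, rose by 0.80 ± 0.16 (adjusted p = 0.005; 0.0745 without the pairing), and Chrm4, a muscarinic receptor of the same neurons, fell by 0.69 ± 0.17 (adjusted p = 0.0112; 0.153 without the pairing). Of 16 cortical excitatory markers 4 rose and 4 fell (median -0.17, which became 0.13 under that scaling), and 0 and 1 without the pairing. Of 13 striatal interneuron markers 4 rose and 3 fell (median 0.14), and 0 passed without the pairing. Number 2 had the most medium spiny and the least cortical signal in both fractions. Cortical markers took 0.138% of nuclear coding signal in its input, against 0.237% and 0.270% in numbers 1 and 3. In polysome RNA they took 0.158% against 0.272% and 0.384%. Of 18 microglia markers, 7 rose and 1 fell (median 0.45), and 2 rose without the pairing. Their sum was 0.245% to 0.274% of nuclear coding signal in input and 0.371% to 0.471% in polysome RNA, without overlap. Without Cst3, the most abundant of them, the others summed to 0.117% to 0.156% and 0.147% to 0.205%, which overlapped. Cst3, cystatin C, which astrocytes also express, was the largest of these rises, at 0.93 ± 0.16 (adjusted p = 0.00349).

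Glial and vascular lists were split as well. Of 16 astrocyte markers, 3 rose and 5 fell (median -0.27, which became 0.02 with libraries scaled without mitochondrial genes), and 1 and 1 without the pairing. Atp1b2, a sodium pump subunit, rose from 5636, 5800 and 6608 to 10077, 10478 and 10182, and Slc1a3, a glutamate transporter, fell from 52226, 48592 and 55138 to 25405, 28338 and 20040. Of 17 oligodendrocyte markers, 5 rose and 3 fell (median -0.08, which became 0.22 under that scaling), and 1 and 0 without the pairing, with Mog at 1.09 and Mag at -0.88, both myelin proteins. Of 8 oligodendrocyte precursor markers, 1 rose and 4 fell (median -0.44), and 0 and 2 without the pairing. Endothelial markers had 2 higher of 12 (median -0.02, which became 0.27 under that scaling), mural markers 1 lower of 8, and choroid plexus and ependymal markers 2 higher and 1 lower of 11. Ttr, the transthyretin of choroid plexus, was far higher in number 3, with 14363 in input and 32593 in polysome RNA against 357 to 1191 and 595 to 1724 in the other numbers. Its difference was 0.82 ± 0.16 with the pairing (adjusted p = 0.00544, limma) and did not pass without it (adjusted p = 0.76). The choroid plexus and ependymal markers summed to 0.102% and 0.126% of nuclear coding signal in number 3 and to 0.0496% to 0.0596% in numbers 1 and 2. In numbers 1 and 2 these sums held far more Enpp2 than Ttr. Enpp2 had 23779 and 27096 in input and 18307 and 22963 in polysome RNA there. The sums thus differed less between numbers than Ttr did. The part of these markers in other differences was not tested. Fewer cells of a type and less RNA per cell cannot be told apart in these bulk libraries.

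WT synaptosomes gave the comparison against which anything particular to TG had to be tested. In WT 4976 of 16333 genes passed (30.5%), 2267 higher (13.9%) and 2709 lower (16.6%). Of the 2567 TG higher genes tested in WT, 1880 (73.2%) were also called higher there, which was 83.1% of the WT higher genes. Of the 2774 TG lower genes tested in WT, 2296 (82.8%) were called lower, or 85.1% of the WT lower genes. Across the 16064 genes tested in both, the Spearman correlation of the differences was 0.88. What the library numbers stand for is not stated in the labels, so TG and WT libraries of 1 number may share a source of variation. Bc1 was at -5.57 in WT and -5.82 in TG, Higd1a at 1.62 and 1.87, Eef2 at -0.90 and -0.96, and Unc13a at -1.55 and -1.49.

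**Figure D5:**
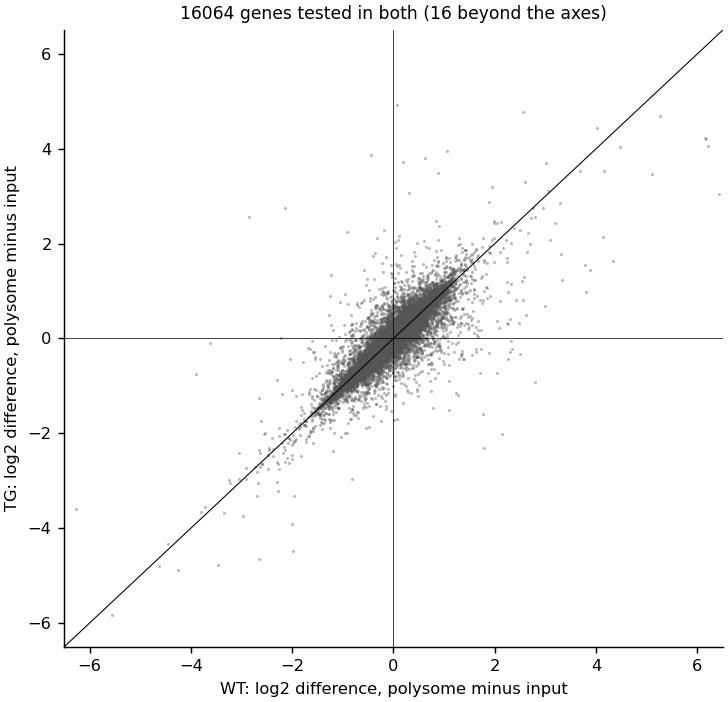
Log2 difference of polysome minus input in WT (horizontal) and TG (vertical) for 16064 genes tested in both, with the line of equal differences, and 16 genes beyond the axes. Points lie along the line (Spearman correlation 0.88), and no gene passed the test of the difference between genotypes.

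The difference between genotypes was itself tested, as TG polysome minus input less the same in WT. No gene of 16962 passed (0.00%) in limma with the pairing, and none did without it. At an unadjusted p under 0.05 there were 209 genes, and the smallest adjusted p was 1.00. The 5 smallest p-values, none passing, were those of Baiap2l2, Rps6kb2, Lhcgr, Zfp964 and Vwa3b. Rps6kb2, an S6 kinase downstream of mTORC1, had log2 differences of 0.49, 1.21 and 1.499 in the TG pairs and -0.37, -0.02 and -0.31 in the WT pairs (genotype difference 1.30 ± 0.31, SE). Baiap2l2, which shapes membranes through a BAR domain, had -0.45, -1.11 and -1.12 in TG and 0.31, 1.92 and 1.03 in WT (-1.99 ± 0.46). For Shank3 the difference between polysome and input was -0.27 in TG and -0.22 in WT.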

How the data were processed

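RNA of striatal synaptosomes (input) and of their polysomes was sequenced in 12 libraries, made with a stranded total RNA kit per the labels' protocols. The authors' software, per the submitters' processing notes, included DESeq2 1.26.0, Salmon 1.1.0 and R 3.6.2, and the build was GRCm38. The signal that the authors deposited is a normalized estimated count per gene; the sources used here give neither its annotation nor its normalization model. Values are not whole, and at best 3.46% to 7.87% of low values fell within 0.01 of whole multiples of a step, so reads were not recovered and depth is unknown.

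Values were transformed as log2(value + 1) and fitted with limma 3.58.1 in R 4.3.3 (variance trend, library number as replicate block), which understates changes of low genes. Genes needed a value of 10 in 3 of 6 libraries; p-values were adjusted by Benjamini-Hochberg over all genes. The pairing comes from the shared numbers: deviations from group means correlated at 0.30, 0.48 and 0.40 in same-numbered pairs and at -0.41 to -0.03 in others, which in part cancel by construction. The block was kept because every pair exceeded 0.1.

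Of the gene IDs, 21465 matched GENCODE M21 (GRCm38), from which symbols, lengths, sequences and 31-base words shared between genes were taken. Python 3.11.15 served for summaries. Named genes were Shank3, the 10 largest rises and falls (mean log2 level of at least 5, no overlap, at most 50% shared sequence, no predicted genes), and the extremes of each list. The comparison and the gene lists were chosen with earlier results of these data known. In simulated data of 16292 genes for this comparison, 70 of 100 genes changed by 1 log2 unit and 96 of 100 changed by 2 were recovered, with 10 unchanged genes called. The simulated noise was independent between genes and only 200 genes were changed, against 5362 called here. These rates need not hold for the real data. Alternatives covered scaling, filters, pseudocounts, variance models, length and each library left out; sums of microglia and astrocyte markers without their most abundant member were added after seeing the data.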

Additional observations from a re-analysis of the deposited data

How the results depend on the processing

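The count of TG genes differing between fractions was 5362 with the replicate block and within 1.5 times of it under TMM scaling, quantile normalization, other filters, other pseudocounts, robust variance, removal of the length trend, removal of genes with shared sequence, and 1 fit of all 12 libraries. It was 3796 to 4635 with one number left out, with 1789 to 2183 higher and 2007 to 2452 lower genes. Without the block it was 1700 (627 higher, 1073 lower), and without the variance trend 2008 (812 and 1196). Scaling without mitochondrial genes gave 5503 higher and 1391 lower. Without the block and with one library left out, counts ran from 85 to 1873 (12 to 888 higher, 73 to 1098 lower), with 2 libraries left in one fraction. They were 1873 (888 and 985) without input 1, 139 (21 and 118) without input 2, 166 (25 and 141) without input 3, 85 (12 and 73) without polysome 1, 1483 (385 and 1098) without polysome 2 and 105 (14 and 91) without polysome 3. The cause of these drops was not tested.

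In WT the counts without the block were 1994 (742 higher, 1252 lower) and with one number left out 3302 to 4742 (1301 to 2237 higher, 2001 to 2511 lower), lowest without number 2. The genotype difference gave 0 genes in every setting run except those leaving out number 2 (2 genes) or number 3 (1 gene). Of the named genes, 54 of 133 lost their call without the block and 18 of 128 with scaling without mitochondrial genes. Signs changed in 3 genes. Shank3 was at 0.027 with that scaling, 0.0014 with the length trend removed, and, without the block, 0.066 without input 2 and 0.17 without polysome 1. mt-Rnr1 was at 0.13 after quantile normalization. Ttr was at -0.36 without input 2 and -0.85 without polysome 3, both without the block. Depth is unknown, so no limit from counting error can be given.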
